A study of Mus musculus with 12 samples.

Results

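Of the S100 genes of the mouse, 10 other than the calprotectin pair S100a8 and S100a9 were followed in ears injected with psoriatic cytokines: S100a1, S100a3, S100a4, S100a6, S100a7a, S100a10, S100a11, S100a13, S100a14 and S100a16. They were matched to Ensembl rows of the count table by the symbols in the authors' tables. These 10 genes are part of 18 S100 genes in a table of 50684 genes, and all 10 passed the filter on low counts that left 19408 genes to test. Of the other 8 S100 genes, S100a8, S100a9 and S100b passed the filter, and S100a5, S100z, S100g, S100a7l2 and S100a2 did not, with at most 9 counts in any library.

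The ear pinnae of female C57BL/6 mice, 8 weeks old, had been injected intradermally with 5 µL of PBS, IL-17A, IL-36γ or IL-17A + IL-36γ, with 1 µg of each cytokine. The ears were collected on day 4, after 4 days of consecutive treatment in all groups. Each group held 5 mice, of which 3 were sequenced, so that 12 RNA-Seq libraries in 4 groups were available. All mice were of this 1 strain, with no altered allele named, and the PBS mice received the same injection without cytokine. The model covers a response of days to injected recombinant cytokine and no spontaneous disease. The tissue is labelled as skin, and the RNA came from homogenized ear. Markers of epidermis, fibroblasts, cartilage, skeletal muscle and other cells of the ear were present in every group, none of them at 0 in all libraries. In such bulk RNA, a change in the number of cells of a type and a change of RNA per cell cannot be told apart.

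S100 proteins are small calcium-binding proteins of the EF-hand type that mostly act as dimers. On binding calcium they expose a surface that docks onto partner proteins such as annexins, myosin or cytoskeletal proteins, and some are released from cells and bind receptors such as RAGE or TLR4. Most of their genes lie side by side on mouse chromosome 3 in the epidermal differentiation complex, next to genes for cornified envelope proteins. In skin they are known from keratinocytes, hair, nerve, fibroblasts and leukocytes, and several members are raised in human psoriatic plaques.

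Stretches upstream of the transcription start are shown for the 3 genes whose RNA increased in the combination by the most, S100a7a, S100a11 and S100a16, together with the stretch that lies between the start sites of S100a1 and S100a13, a pair transcribed away from each other. The sequences are those of RefSeq on GRCm38.p6, written 5′ to 3′ on the strand of the gene (for the pair, on the strand of S100a13) and limited to bases outside annotated exons. Promoters of 8 of the 10 genes were found in the RefSeq table; S100a10 and S100a14 are named only. Capitals mark matches, on either strand, to the motifs of factors and elements that are spelled out after the sequences, with N for any base.
S100a7a, chr3:90654099-90654286, plus strand: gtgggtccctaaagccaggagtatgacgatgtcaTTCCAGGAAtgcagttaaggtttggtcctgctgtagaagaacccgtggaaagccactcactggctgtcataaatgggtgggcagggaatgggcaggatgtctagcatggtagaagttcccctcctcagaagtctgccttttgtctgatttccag
S100a11, chr3:93520288-93520487, plus strand: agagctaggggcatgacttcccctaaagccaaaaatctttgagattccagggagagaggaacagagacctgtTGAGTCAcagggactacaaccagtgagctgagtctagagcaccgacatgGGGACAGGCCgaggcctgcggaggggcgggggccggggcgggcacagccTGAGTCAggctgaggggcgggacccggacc
S100a16, chr3:90537054-90537253, plus strand: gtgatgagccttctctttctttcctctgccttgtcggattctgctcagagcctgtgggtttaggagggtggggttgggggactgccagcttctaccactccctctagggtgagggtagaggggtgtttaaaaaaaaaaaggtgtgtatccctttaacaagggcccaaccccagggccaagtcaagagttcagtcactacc
between S100a1 and S100a13, chr3:90514393-90514434, plus strand: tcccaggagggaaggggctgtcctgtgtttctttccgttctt

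In the stretch of S100a7a, a match to the STAT motif began 169 bases before the RefSeq start site. The stretch of S100a11 held matches to AP-1 at 136 and 38 bases and to NF-kB at 87 bases before the start site, none of which overlapped. No match to these motifs was present in the printed stretch of S100a16 or in the 42 bases between S100a1 and S100a13. Among the first 250 bases upstream of all 32851 RefSeq promoters, 6.75% held the letters of AP-1 (TGANTCA) on either strand and 17.6% those of NF-kB, which were searched as GGGANNNNCC. For C/EBP, searched as TTGCNNAA, the share was 9.56%, and for STAT, searched as TTCNNNGAA, it was 7.02%. The TATA element, TATAAA, was present in 12.4% of them. The printed stretches are shorter than 250 bases, and the stretch of S100a7a lies within the longer gene model of GENCODE, which begins at position 90654017. A match is a description of letters and not of binding.

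First, the level of the 10 genes was compared between the groups as a whole. Levels are given as CPM, the counts of a gene relative to the total of its library after TMM scaling. The summed level of the 10 genes lay between 1040 and 1440 CPM in PBS, from 1490 to 1770 CPM with IL-17A, from 1280 to 1710 CPM with IL-36γ, and from 1600 to 1630 CPM with both cytokines. The sum of S100a8 and S100a9, the subunits of calprotectin, was 30.5 ± 40.1 CPM in PBS and 8340 ± 1310 CPM in the combination (mean ± SD, n = 3). The 10 genes thus made up 88.4% to 96.4% of the S100 counts in the PBS libraries, 66.8% to 79% with IL-17A, 24.8% to 36.2% with IL-36γ and 14.2% to 17.6% with both cytokines. In the PBS group this share was lowest in replicate 2, which had 76.7 CPM of calprotectin. The sum of the 10 genes itself was lower in no treated library than in PBS replicates 2 and 3, and PBS replicate 1, at 1440 CPM, lay among the treated libraries.

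**Figure D1:**
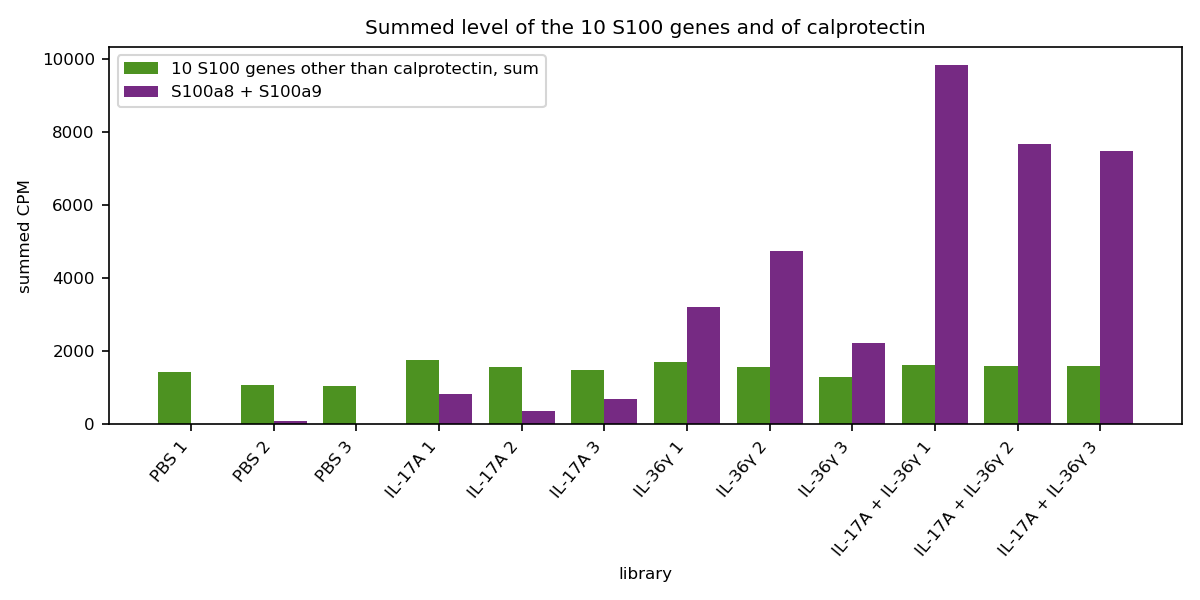
Summed CPM of the 10 S100 genes other than calprotectin (green bars) and of S100a8 + S100a9 (purple bars) in each of the 12 libraries, with 3 mice per group. The green bars stay between 1040 and 1770 CPM, while the purple bars reach 9850 CPM in the first library of the combination.

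Compared per kb of exon, S100a6, also called calcyclin, had the highest level of the 10 genes in each of the 4 groups, with 316 ± 72.2 CPM per kb in PBS and 493 ± 43.5 CPM per kb in the combination. In PBS it was followed by S100a4 with 194 ± 55.8, S100a14 with 148 ± 27.1, S100a10 with 128 ± 10.5 and S100a16 with 89.6 ± 19.8 CPM per kb. The neighbours S100a4 and S100a14 in this order, and S100a14 and S100a10, differed by less than 1 SD. S100a11 had 51.2 ± 11.1, S100a1 37.8 ± 1.32 and S100a13 27.3 ± 1.28 CPM per kb. S100a3 with 0.742 ± 0.0724 and S100a7a with 0.284 ± 0.0647 CPM per kb were far below the rest. In the combination S100a7a, at 9.25 ± 9.61 CPM per kb, stood above S100a3 at 0.291 ± 0.035 CPM per kb. With the length of the longest transcript in place of all exons, S100a6 was first again in each group, and S100a10 moved up by 1 place in 3 groups and by 2 in the combination. Of the 584 exon bases of S100a4, 302 overlap another gene on the same strand, and 37.6% of the 76-base windows of S100a11 occur in other genes. The levels per kb were not corrected for reads lost in this way. The places of S100a4, also relative to S100a6, and of S100a11 are therefore uncertain.

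Each gene was then tested in the 6 comparisons of the groups with the quasi-likelihood test of edgeR. A gene differed at an adjusted p below 0.05 over all 19408 genes, and it was called where the absolute log2 fold change was above 1 as well. With IL-17A, 3 of the 10 genes were higher than in PBS and none was lower, where 10.9% of all tested genes differed. None of the 10 was called, against 2.1% of all genes, although 7 had an unadjusted p below 0.05, and DESeq2 called none either. The count of 3 depended on the test and on single libraries: DESeq2 gave 6, all higher, among 3780 genes in all (2120 with edgeR). It was 0 without PBS replicate 2 or 3 or IL-17A replicate 1 or 2, and 6 without PBS replicate 1. Over all genes, 367, 21, 81 and 598 differed in the former fits and 4571 in the latter. With IL-36γ, 5 of the 10 genes were higher and 1 was lower, against 28.4% of all genes that differed, and 1 was called, against 7.1%. The count of 6 fell to 0 without PBS replicate 2, to 1 without PBS replicate 3 or IL-36γ replicate 2, and to 2 without IL-36γ replicate 1. Over all genes, 3486, 2987, 3412 and 3425 differed in these fits, compared with 5519 with all libraries. With IL-17A + IL-36γ, 5 of the 10 genes were higher and 1 was lower, against 44.6%, and 3 were called, against 13.4%. Without 1 library, from 4 to 7 of them differed in the combination, and from 6412 to 9716 of all genes. These 3 comparisons share the PBS libraries, so that a PBS library that stands apart moves all of them. PBS replicate 1 had 493 CPM of skeletal muscle markers, against 3840 and 3350 CPM in PBS replicates 2 and 3. Its epidermal markers summed to 20900 CPM, against 15400 and 15100 CPM in the other PBS libraries. The part of tissue make-up in these comparisons was not tested. The median log2 fold change against PBS of the 10 genes was 0.40 with IL-17A, 0.31 with IL-36γ and 0.26 with both, compared with 0.04, -0.02 and -0.03 over all tested genes.

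This has to be read beside the length of the transcripts. Of the 10 genes, 6 have a longest transcript below 1000 bases, and 750 protein-coding genes of this length were tested. Their median log2 fold change against PBS was 0.35 with IL-17A, 0.30 with IL-36γ and 0.29 after the combination, while that of 5664 protein-coding genes above 4000 bases was 0.01, -0.05 and -0.08. The short genes lay below their mean over the 12 libraries in all 3 PBS libraries, by 0.07 in replicate 1 and by 0.31 in replicates 2 and 3 on the log2 scale. Since this shift lies between PBS and all other groups, the treatment and the preparation of the RNA cannot be told apart as its source. Therefore each change against PBS is given also with the gene length trend removed in each library, an alternative chosen after the data were seen. With it, 0 of the 10 genes differed from PBS for IL-17A, 4 for IL-36γ with 1 called, and 6 for the combination with 2 called. Over all genes, 1549, 6126 and 9270 differed in the same order, and 433, 1774 and 2944 were called.

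**Figure D2:**
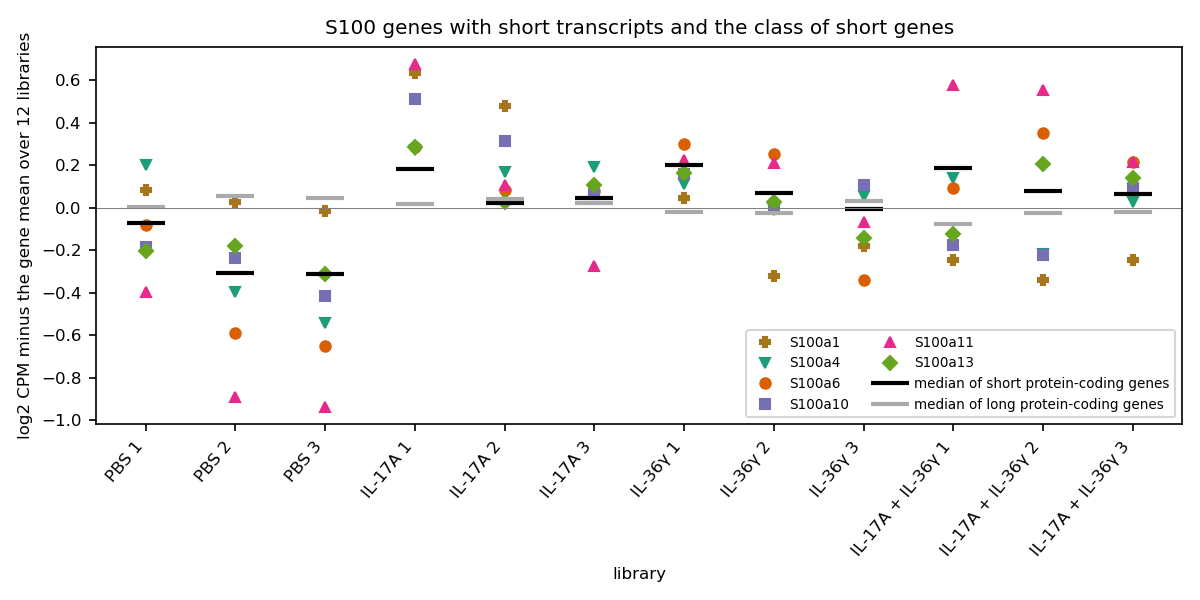
Deviation of log2 CPM from the mean of the gene over 12 libraries, for the 6 S100 genes with transcripts below 1000 bases (coloured symbols) and for the median of 750 short and 5664 long protein-coding genes (black and grey bars). In the 3 PBS libraries the black bar lies below 0, at -0.07, -0.31 and -0.31, while S100a6, S100a10, S100a11 and S100a13 lie below 0, S100a4 lies at 0.20, -0.40 and -0.54, and S100a1 at 0.085, 0.028 and -0.014.

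S100a7a, the mouse counterpart of the human psoriasin and koebnerisin genes, whose proteins act on bacteria and attract leukocytes, had the largest change of the 10. Its level was 0.388, 0.481 and 0.303 CPM in the PBS libraries, from 14, 17 and 10 counts. With IL-17A it was 2.37, 0.366 and 0.282 CPM, with IL-36γ 3.56, 9.02 and 1.14 CPM, and with IL-17A + IL-36γ 27.9, 3.47 and 6.86 CPM. Thus 1 of the 3 IL-17A libraries lay above PBS, 1 lay in its range and 1 just below it, while each library with IL-36γ lay above each PBS library. S100a7a was 11.6-fold higher than PBS with IL-36γ (log2 fold change 3.54 ± 1.04 SE, adjusted p = 0.0257) and 32.1-fold higher after the combination (5.00 ± 1.04 SE, adjusted p = 0.00239). With IL-17A the log2 fold change was 1.34, with a 95% interval from -1.23 to 3.92. The combination was 12.7-fold above IL-17A (adjusted p = 0.0123), whereas against IL-36γ the log2 fold change was 1.47 with an interval from -0.31 to 3.24 and an adjusted p of 0.415.

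The libraries of a group differed widely in this gene, with a coefficient of variation of 104% in the combination and 88.3% with IL-36γ. Its call with IL-36γ was lost without PBS replicate 2 or 3 or without IL-36γ replicate 2, with an adjusted p of up to 0.116, and its call against IL-17A was lost without IL-17A replicate 2 or combination replicate 1, with an adjusted p of up to 0.0659. The change against PBS in the combination passed in each of the 12 fits without 1 library, with log2 fold changes between 3.71 and 5.45. With the length trend removed, the log2 fold changes were 3.38 with IL-36γ (adjusted p = 0.0272) and 4.81 after the combination (adjusted p = 0.00264). The 3 genes whose log2 CPM over the 12 libraries was most like that of S100a7a were Sprr2j-ps (Pearson's r = 0.985), Ptges (r = 0.981), which makes prostaglandin E, and Lce3a (r = 0.973), a gene of the cornified envelope. The summed level of 6 neutrophil markers, which was 14.8 to 23.4 CPM in PBS and 105 to 212 CPM in the combination, moved with it (r = 0.916 over 12 libraries, and 0.839 after centring each group). All 6 markers were higher than PBS in the combination, 5 with IL-36γ and 3 with IL-17A, where 44.6%, 28.4% and 10.9% of all genes differed. The part of neutrophils in the level of S100a7a was not tested.

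S100a11, or calgizzarin, a partner of annexin A1 that is known from growth control of keratinocytes, was the second gene to be called as higher. Its level was 32.7, 23.3 and 22.5 CPM in PBS, 69, 46.5 and 35.7 CPM with IL-17A, 50.5, 50 and 41.1 CPM with IL-36γ, and 64.4, 63.4 and 50.1 CPM in the combination. Each treated library lay above each PBS library, and the 3 treated groups overlapped. S100a11 rose by a log2 fold change of 0.95 ± 0.22 SE with IL-17A (adjusted p = 0.0258), of 0.85 ± 0.22 SE with IL-36γ (adjusted p = 0.0132) and of 1.18 ± 0.22 SE in the combination (adjusted p = 0.00109). The last of these is a 2.26-fold rise with a 95% interval of the log2 value from 0.71 to 1.65. With the length trend removed, S100a11 gave a log2 fold change of 0.61 in the combination (adjusted p = 0.0104), which passed without reaching a log2 value of 1. With IL-17A it gave 0.55 (adjusted p = 0.0614) and with IL-36γ 0.34 (adjusted p = 0.129), neither of which passed. Without PBS replicate 2 or 3 or IL-17A replicate 1 or 2 the rise with IL-17A was lost as well (adjusted p up to 0.13), and that with IL-36γ was lost without PBS replicate 2 or 3 or IL-36γ replicate 1 (up to 0.0619). The transcript of S100a11 is 511 bases long, and 37.6% of its windows of 76 bases, the read length, also occur in other genes, among them the pseudogenes Gm12854 and Gm7665, which had 6 to 14 and 1 to 12 counts.

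S100a16, a gene known from epithelia, was at 182, 123 and 130 CPM in PBS and at 194, 179 and 178 CPM with IL-17A. It reached 228, 218 and 178 CPM with IL-36γ and 274, 232 and 227 CPM in the combination. PBS replicate 1 was as high as the IL-17A libraries, and the libraries of the combination lay above each PBS and each IL-17A library. S100a16 rose 1.43-fold with IL-36γ (log2 fold change 0.52 ± 0.14 SE, adjusted p = 0.018) and 1.69-fold in the combination (0.75 ± 0.14 SE, adjusted p = 0.00128). It was 1.33-fold higher in the combination than with IL-17A (adjusted p = 0.0419), while with IL-17A the log2 fold change against PBS was 0.34 with an adjusted p of 0.125. With the length trend removed these differences passed too, at 0.35 for IL-36γ (adjusted p = 0.0192), 0.57 for the combination (adjusted p = 0.000681) and 0.43 for the combination against IL-17A (adjusted p = 0.00556). Leaving out 1 library ended the difference from IL-17A in 6 of 12 fits (adjusted p up to 0.152), and the rise with IL-36γ was lost without PBS replicate 2 or 3 or IL-36γ replicate 1 or 2 (up to 0.0827). The summed level of 8 epidermal markers, among them Krt5, Krt14 and Lor, lay between 15100 and 20900 CPM in PBS and between 31100 and 36900 CPM in the combination. Of the 8 markers, 3 were higher than PBS in the combination and 1 was lower, where 44.6% of all genes differed. Their log2 fold changes ran from -0.42 to 4.21 with a median of 0.20, so that the sum does not stand for a rise of each marker. S100a16 had a Pearson's r of 0.966 with this sum over the 12 libraries and of 0.945 after centring each group. Of the other members, S100a7a had an r of 0.844, S100a11 of 0.831 and S100a6 of 0.789 with it. After centring each group these values were 0.376, 0.638 and 0.837, and S100a14 had 0.845 (0.314 before centring).

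S100a6, whose protein binds annexin A11 and the ubiquitin ligase component Cacybp and is known from dividing cells, was at 546, 384 and 368 CPM in PBS, 703, 612 and 611 CPM with IL-17A, 710, 687 and 455 CPM with IL-36γ, and 617, 735 and 670 CPM in the combination. The third IL-36γ library lay in the range of PBS. S100a6 was 1.56-fold higher than PBS in the combination (log2 fold change 0.64 ± 0.18 SE, adjusted p = 0.0121) and 1.43-fold higher with IL-36γ (0.51 ± 0.18 SE, adjusted p = 0.0481). With IL-17A the log2 fold change was 0.57 with an adjusted p of 0.0577, and it passed with DESeq2 (adjusted p = 0.0151) and without the filter on low counts (adjusted p = 0.0375). With the length trend removed none of the 3 passed (log2 fold changes 0.28, 0.22 and 0.33, adjusted p = 0.19, 0.224 and 0.0639 in the order IL-17A, IL-36γ, combination). The difference with IL-36γ was lost in 10 of 12 fits without 1 library, with an adjusted p of up to 0.186, and that in the combination without PBS replicate 3 (adjusted p = 0.0543).

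S100a4, known as a marker of fibroblasts and of migrating cells that binds non-muscle myosin, and S100a14, an epithelial gene, did not differ in any comparison in the main edgeR fit. That fit used all 12 libraries, the filter on low counts and TMM scaling, with no block. With DESeq2, S100a4 was higher with IL-17A than in PBS (log2 fold change 0.41, adjusted p = 0.0432). The same held in edgeR with a block for the replicate number (0.45, adjusted p = 0.0351). S100a4 lay at 150, 99.2 and 89.9 CPM in PBS and between 113 and 158 CPM in the treated libraries. S100a14 lay between 220 and 309 CPM in PBS and between 224 and 308 CPM in the treated libraries. For S100a14 the log2 fold change in the combination was 0.06 with a 95% interval from -0.24 to 0.36, which bounds a change at this depth without showing that there was none. PBS replicate 1 was the highest PBS library for both. Without it, S100a4 was higher than PBS in each of the 3 treated groups (adjusted p = 0.0019, 0.00214 and 0.00242), and with the length trend removed it was lower than PBS in the combination (log2 fold change -0.38, adjusted p = 0.0113), so that its direction depended on the processing. Of the 584 exon bases of S100a4, 302 overlap the gene Gm42674 on the same strand, which had no count in any library.

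**Figure D3:**
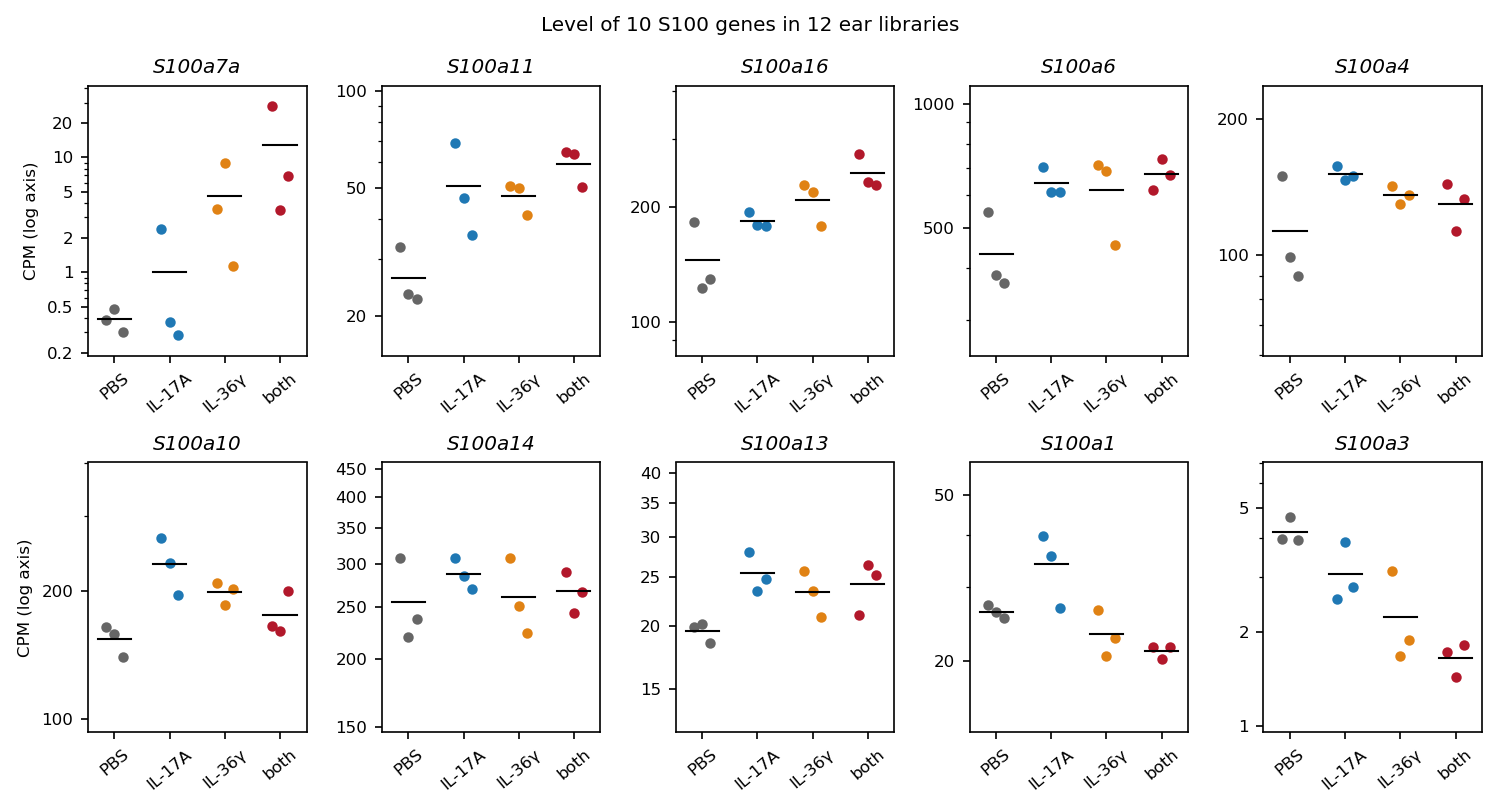
CPM of each of the 10 S100 genes on a log axis in the 3 libraries (points) of PBS, IL-17A, IL-36γ and the combination (both), with the group mean as a bar. S100a7a spreads from 0.282 to 27.9 CPM, S100a3 falls from 3.94 to 4.67 CPM in PBS to 1.43 to 1.81 CPM in the combination, and S100a14 stays between 220 and 309 CPM.

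S100a10, also called p11, forms a heterotetramer with annexin A2 that ties plasminogen activation and membrane repair to the cell surface. It was highest with IL-17A alone, with 267, 233 and 196 CPM compared with 165, 159 and 140 CPM in PBS, 209, 186 and 202 CPM with IL-36γ, and 166, 161 and 200 CPM in the combination. The IL-17A and IL-36γ libraries lay above each PBS library, and those of the combination overlapped with PBS. S100a10 rose 1.5-fold with IL-17A (log2 fold change 0.58 ± 0.12 SE, adjusted p = 0.0195) and 1.29-fold with IL-36γ (0.36 ± 0.12 SE, adjusted p = 0.0359), and was lower in the combination than with IL-17A (-0.40 ± 0.12 SE, adjusted p = 0.021). Against PBS the combination gave a log2 fold change of 0.18 with an interval from -0.07 to 0.44. The interaction, which is the effect of adding IL-17A to IL-36γ less the effect of adding it to PBS, was -0.77 ± 0.17 SE with an adjusted p of 0.0572, the lowest of the 10 genes. Its adjusted p was 0.000605 with DESeq2, 0.0212 without the filter on low counts, and 0.0258 without PBS replicate 1. The interaction did not pass with the length trend removed (-0.47, adjusted p = 0.15) or with library size as the only scaling (adjusted p = 0.0808). It passed in 1 of the 12 fits without 1 library, with an adjusted p of up to 0.156. The median interaction of the 750 short genes was -0.34. With the length trend removed, the differences from PBS no longer passed (log2 fold changes 0.25 and 0.01, adjusted p = 0.185 and 0.955), whereas the difference between the combination and IL-17A did (-0.46, adjusted p = 0.011). That difference was lost without IL-17A replicate 1 or 2 or combination replicate 1 or 2 (adjusted p up to 0.0931), and the rise with IL-17A without PBS replicate 2 or 3 or IL-17A replicate 1 or 2 (up to 0.104). The rise with IL-36γ was lost in 6 of 12 such fits (up to 0.145).

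Anxa2 and Anxa1, the annexin partners named above for S100a10 and S100a11, were highest with IL-17A alone, as S100a10 was. The mean of S100a11 was highest in the combination (59.3 CPM, against 50.4 CPM with IL-17A). Of other annexins, Anxa5, Anxa7 and Anxa11 were highest with IL-17A, and Anxa6 with IL-36γ (153 ± 13.3 CPM, against 140 ± 6.92 CPM with IL-17A). Anxa2 was at 963 ± 86.7 CPM in PBS, 1370 ± 169 with IL-17A, 1110 ± 80.5 with IL-36γ and 1090 ± 96 in the combination (log2 fold change with IL-17A 0.51 ± 0.11 SE, adjusted p = 0.0232). Anxa1 was at 670 ± 56.7, 906 ± 76.1, 795 ± 53.2 and 737 ± 44.9 CPM in the same order (0.44 ± 0.09 SE with IL-17A, adjusted p = 0.0225). Ahnak, a large scaffold protein bound by the complex of S100a10 and annexin A2, was lower than PBS in the combination (-0.33 ± 0.11 SE, adjusted p = 0.0271). Anxa1 was also the gene whose log2 CPM was most like that of S100a10 (Pearson's r = 0.976 over 12 libraries), followed by Plat, the tissue plasminogen activator (r = 0.971), and Crip1 (r = 0.951). Of 13 partners of S100 proteins from a written list, 5 were higher with IL-17A, 2 with IL-36γ and 3 in the combination, and 1 was lower in the combination, with no call at a log2 value of 1. Over all genes 10.9%, 28.4% and 44.6% differed in these comparisons, so that the partners lay below the share of all genes with IL-36γ and in the combination. Of 3 receptors, Bsg and Tlr4 were higher with IL-17A (log2 fold changes 0.34 and 0.44, adjusted p = 0.0263 and 0.0416), Bsg also with IL-36γ (0.45, adjusted p = 0.00197) and in the combination (0.53, adjusted p = 0.000287). Ager, the gene of RAGE, lay at 2.21 ± 0.394 CPM in PBS and did not differ in any of these comparisons.

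S100a1 and S100a13 lie head to head on chromosome 3, with 42 bases between their annotated starts (S100a1 at 90511034 to 90514392 on the minus strand, S100a13 at 90514435 to 90524581 on the plus strand of GRCm38). S100a1 is best known from muscle, where it acts on calcium release, and S100a13 from the release of FGF1 without a signal peptide. S100a1 was at 27.2, 26.1 and 25.3 CPM in PBS, 39.8, 35.7 and 26.8 CPM with IL-17A, 26.5, 20.5 and 22.6 CPM with IL-36γ, and 21.6, 20.2 and 21.6 CPM in the combination. S100a13 was at 19.9, 20.2 and 18.5 CPM, 28, 23.4 and 24.7 CPM, 25.7, 23.4 and 20.8 CPM, and 21, 26.4 and 25.2 CPM in the same order. All libraries of the combination lay below PBS for S100a1 and above PBS for S100a13. The ratio of S100a1 to S100a13 counts was 1.37, 1.29 and 1.37 in PBS, 1.42, 1.53 and 1.08 with IL-17A, 1.03, 0.876 and 1.09 with IL-36γ, and 1.03, 0.765 and 0.856 in the combination. Each library with IL-36γ thus had a lower ratio than each PBS library, a value that does not depend on the scaling of the libraries.

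By the test, S100a1 was lower in the combination than with IL-17A (log2 fold change -0.69 ± 0.13 SE, adjusted p = 0.00246) and lower with IL-36γ than with IL-17A (-0.56 ± 0.13 SE, adjusted p = 0.0255). The first passed in each of 12 fits without 1 library, and the second was lost without IL-17A replicate 1 or 2 or IL-36γ replicate 2 or 3 (adjusted p up to 0.115). Against PBS its log2 fold changes of 0.38, -0.18 and -0.31 did not pass, although the first did with DESeq2 (adjusted p = 0.0305) and the last without the filter on low counts (adjusted p = 0.0484). With the length trend removed, the changes with IL-36γ and in the combination did (-0.55 and -0.72, adjusted p = 0.00608 and 0.000613), as they did with library size as the only scaling (adjusted p = 0.0442 and 0.00731). S100a13 was higher than PBS with IL-17A (0.38 ± 0.11 SE, adjusted p = 0.046) and in the combination (0.31 ± 0.11 SE, adjusted p = 0.0335), and with the length trend removed its log2 fold changes were 0.05 and -0.06. Both rises of S100a13 were also lost with library size as the only scaling (adjusted p = 0.177 and 0.179). The same held without the filter on low counts (0.0786 and 0.0757) and with only the 2 groups compared (0.0866 and 0.0526). The rise with IL-17A was lost as well with RLE scaling (0.0544) and with at least 10 counts in every library (0.0515). Both passed with DESeq2 (0.00975 and 0.0142) and with the replicate block (0.0445 and 0.0403). They were lost in 9 and 4 of the 12 fits without 1 library. The level of S100a1 moved with the summed markers of several cell types. Its r was highest for adipocytes (0.878 over 12 libraries, 0.793 after centring each group), followed by fibroblasts (0.849 and 0.652). Cartilage (0.776 and 0.62) and endothelium (0.748 and 0.386) came next, and skeletal muscle was lower (0.493 and -0.019). The fibroblast sum lay between 8810 and 10700 CPM in PBS, 8540 and 13400 CPM with IL-17A, and 6600 and 8090 CPM in the combination. The adipocyte sum lay between 145 and 186, 145 and 295, and 50.4 and 92.5 CPM in the same groups. The part of any of these cells in the level of S100a1 was not tested.

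S100a3, which is concentrated in the cuticle of the hair, was the only one of the 10 that was lower than PBS in the main edgeR fit. Under other settings of edgeR given above, S100a1 and S100a4 were lower than PBS in the combination as well. Its level was 3.99, 4.67 and 3.94 CPM in PBS, 2.55, 3.89 and 2.78 CPM with IL-17A, 3.13, 1.68 and 1.89 CPM with IL-36γ, and 1.72, 1.43 and 1.81 CPM in the combination. Each treated library lay below each PBS library. The log2 fold change was -0.91 ± 0.23 SE with IL-36γ (adjusted p = 0.014) and -1.35 ± 0.24 SE in the combination (adjusted p = 0.000973), the latter a level 2.54-fold below PBS. In the combination it was also below IL-17A (-0.90 ± 0.25 SE, adjusted p = 0.0163), and with IL-17A the log2 fold change against PBS was -0.45 with an adjusted p of 0.21. The longest transcript of S100a3 has 3143 bases, and with the length trend removed the log2 fold changes were -0.96 and -1.38 (adjusted p = 0.0099 and 0.000783). The fall in the combination passed without each library in turn, with log2 fold changes from -1.41 to -1.26, and that with IL-36γ was lost without PBS replicate 2 or IL-36γ replicate 2 (adjusted p up to 0.0632). The difference from IL-17A was lost without IL-17A replicate 2 or combination replicate 2 (adjusted p up to 0.0888). The summed level of hair follicle markers lay between 39.1 and 48.6 CPM in PBS, 24.6 and 39 CPM with IL-17A, 24.9 and 40.8 CPM with IL-36γ, and 22.8 and 30.6 CPM in the combination, and 6 of 14 of them were lower than PBS in the combination and none higher, a count near the 44.6% of all genes that differed there. S100a3 had a Pearson's r of 0.749 with this sum (0.441 after centring each group). The r was 0.813 with Schwann cell markers (0.421), 0.789 with cartilage markers (0.172) and 0.742 with adipocyte markers (0.505). With neutrophil markers it was lowest, at -0.888 (-0.306). A high r was thus not particular to hair or Schwann cell markers, and the part of any of these cells in the fall of S100a3 was not tested. S100b, an S100 gene of glia outside the 10, fell as well (log2 fold change -1.38 ± 0.22 SE in the combination, adjusted p = 0.000401).

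**Figure D4:**
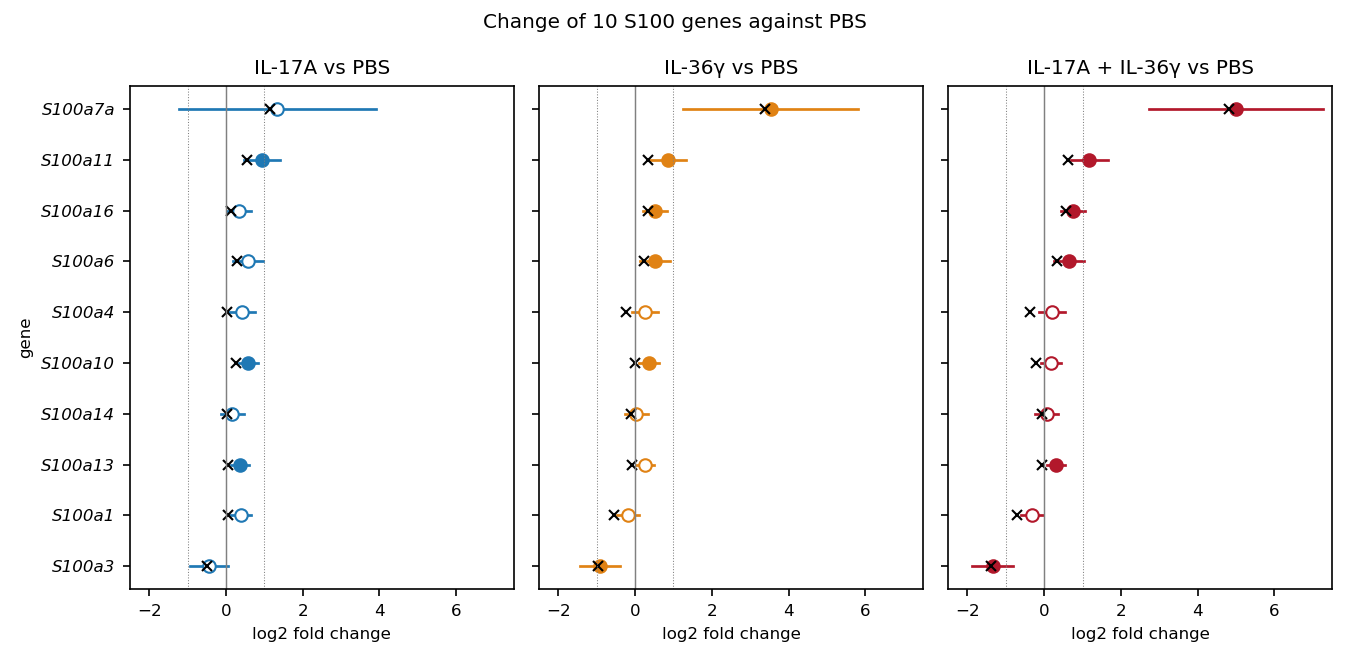
Log2 fold change against PBS of the 10 S100 genes with 95% intervals, 1 panel per treated group. Filled circles passed an adjusted p below 0.05, open circles did not, crosses give the value with the gene length trend removed, and dotted lines mark a log2 value of 1 in either direction: S100a7a reaches 5.00 and S100a3 -1.35 in the combination.

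In the remaining comparisons, 2 of the 10 genes were higher and 3 lower in the combination than with IL-17A, where 32.7% of all genes differed. The higher ones were S100a7a and S100a16 and the lower ones S100a1, S100a3 and S100a10, with only S100a7a called, against 8.95% of all genes. Of these 5, 1 was left without IL-17A replicate 2 and 2 without combination replicate 1 or 2. Over all genes, 4114, 4568 and 4743 differed in these fits, compared with 6355 with all libraries. Between IL-36γ and IL-17A, S100a1 alone differed, against 7.98% of all genes, and none was called, against 1.61%, where 2 had an unadjusted p below 0.05 and DESeq2 called none. Between the combination and IL-36γ none of the 10 differed with edgeR, none had an unadjusted p below 0.05, and none passed with DESeq2, by which 717 genes differed. Over all genes, 0.0206% differed with edgeR in this comparison and 0.0103% were called. No interaction passed among the 10 in the main edgeR fit, against 0.551% of all genes. An unadjusted p below 0.05 was reached there by 3 of them, S100a1, S100a4 and S100a10, and DESeq2 called S100a10, in a fit that called the interaction for 1780 genes where edgeR called 107.

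Along chromosome 3, the S100 genes lie in a stretch of 580 kb (chr3:90511034-91090803) that holds 13 S100 genes, 8 of the 10 among them, while S100a11 and S100a10 lie 2.43 Mb beyond its end. S100a7a (90654017 to 90658669) is the neighbour of S100a8 (90668978 to 90670035) and S100a9 (90692632 to 90695721). These 3 adjacent genes had the largest changes of the family, with log2 fold changes in the combination of 5.00 for S100a7a, 8.07 for S100a8 and 8.11 for S100a9. The next gene on the other side, S100a6, changed by 0.64, and S100a5 between S100a4 and S100a6 stayed at 9 counts or fewer. Pglyrp4, which encodes a peptidoglycan-binding protein and is the only other tested protein-coding gene of this stretch, was higher in the combination than in PBS (0.93 ± 0.21 SE, adjusted p = 0.00353). At the other end, S100a1, S100a13, S100a14, S100a16 and S100a3 stood next to each other, with log2 fold changes in the combination of -0.31, 0.31, 0.06, 0.75 and -1.35.

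**Figure D5:**
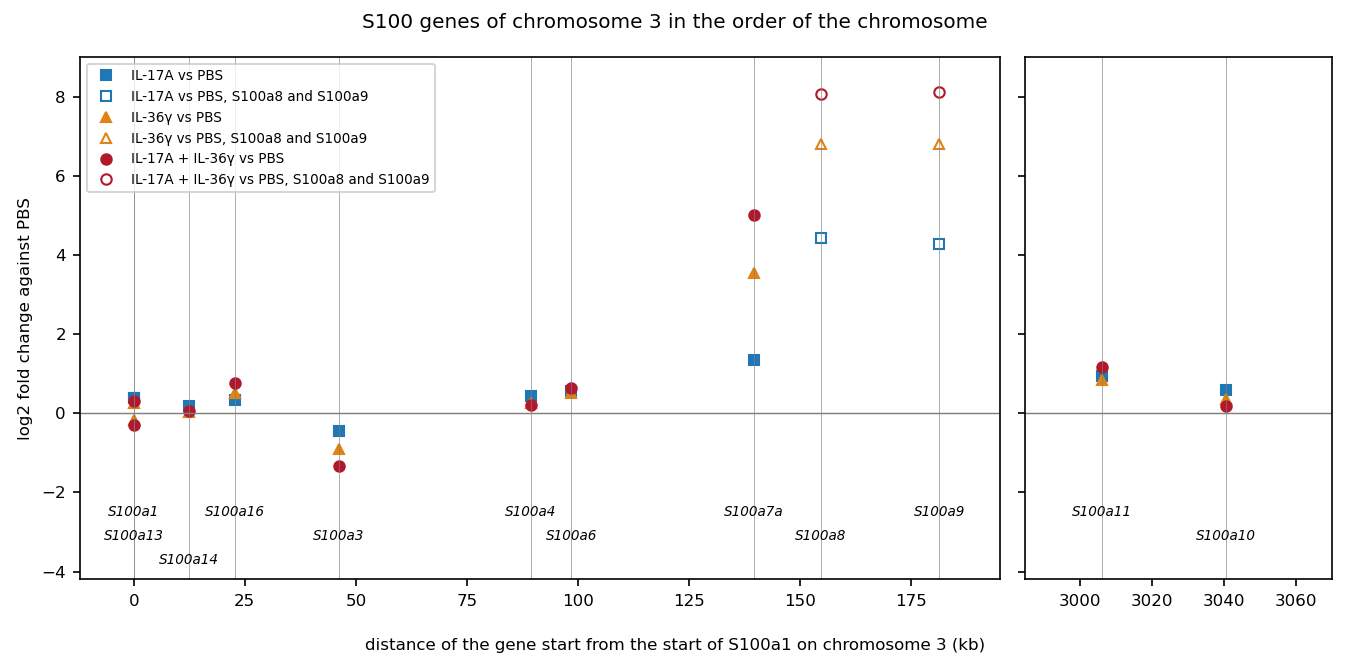
Log2 fold change against PBS of the 12 tested S100 genes of chromosome 3, placed by the distance of their start from the start of S100a1 in kb, with a gap in the axis before S100a11 and S100a10. Filled symbols are the 10 genes and open symbols S100a8 and S100a9, and the values above 1.5 lie in the 3 neighbours S100a7a, S100a8 and S100a9.

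The S100-fused genes, large proteins of the cornified envelope that begin with an S100 domain and lie in the same complex, were set beside the 10. Of 7 tested, 1 was lower with IL-17A, 3 were higher and 1 lower with IL-36γ, and 3 were higher and 2 lower in the combination, where 10.9%, 28.4% and 44.6% of all genes differed. Rptn (repetin) rose by a log2 fold change of 4.54 ± 0.58 SE in the combination (adjusted p = 0.000113) and Flg (profilaggrin) by 2.03 ± 0.48 SE (adjusted p = 0.00515). Flg2 fell by 2.17 on the log2 scale (SE 0.39, adjusted p = 0.000971), and Tchh (trichohyalin), a gene of the hair follicle, fell by 0.85 (SE 0.23, adjusted p = 0.0114). Hrnr was higher in the combination as well (0.66 ± 0.20 SE, adjusted p = 0.0168). In the combination the S100-fused genes that differed thus went in both directions. Trichohyalin had its largest fall with IL-17A alone (log2 fold change -1.09, adjusted p = 0.0225), where S100a3 did not pass (-0.45, adjusted p = 0.21).

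The libraries are of similar depth, with 25293468 to 34759293 counts, and the biological coefficient of variation over all genes was 14.2%. At this depth S100a6 was read at 12133 to 22560 counts per library and S100a3 at 39 to 165, so that counting error bears mostly on S100a3 and S100a7a. Among the 10 genes, over the 12 libraries, the highest Pearson's r was 0.882, between S100a11 and S100a16, followed by 0.874 between S100a6 and S100a11. S100a3 had its lowest r, -0.77, with S100a7a. After centring each group, S100a14 and S100a16 were most alike (r = 0.914), and S100a14 and S100a16 were also close to the median of the short genes within groups (r = 0.929 and 0.924). These values share the libraries and their depth and are given as a description.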

How the data were processed

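RNA-Seq of 12 mouse ear libraries (TruSeq Stranded Total RNA kit) was analysed. Per the labels and methods, the authors aligned reads to mm10 with STAR 2.5.2b and counted them per gene with featureCounts of Subread 1.5.1, and the deposited table holds raw counts, 1 column per mouse. The strand setting and the annotation release used for counting are not given in the sources used here. The authors also deposited fold changes and p-values from DESeq2 1.30.0 for their comparisons, of which only the gene symbols were used.

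From these counts, genes were filtered with filterByExpr (minimum count 10), scaled by TMM and tested with the quasi-likelihood test of edgeR 4.0.16 in R 4.3.3, with 1 mean per group and all 12 libraries fitted together, and Benjamini-Hochberg adjustment over all genes. A call needed an adjusted p below 0.05 together with a log2 fold change beyond 1 in either direction, and for the interaction the adjusted p alone. Similarity was computed on log2 CPM with a prior count of 2. Groups were taken from the labels, and the 3 libraries of a group are separate mice. No 2 libraries of a group were copies (chi-square per gene 5.03 to 42.6 over 12 pairs). Gene positions, lengths and overlaps were taken from GENCODE vM21 on GRCm38, and sequences from RefSeq.

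The members and lists were chosen with earlier results of these data known. The genes named are the 10 members, the S100 genes beside them, partners and receptors tied to a member, the 3 genes most similar to a member, and neighbours in the S100 cluster. Rptn, Flg, Flg2, Tchh and Hrnr were picked with their values in view. The alternatives were DESeq2 1.42.0, other scalings and filters, 2 groups only, calls without a limit on the fold change, a block for the replicate number, and each library left out. The gene length trend, a lowess curve (span 0.1) of each library through protein-coding genes, was added after the data were seen. The test was checked on simulated data.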

Additional observations from a re-analysis of the deposited data

How the results depend on the processing

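The counts of called genes that moved are these. Without a fold change threshold they were 3, 6 and 6 against PBS after IL-17A, IL-36γ and the combination, 5 for the combination against IL-17A and 1 for IL-36γ against IL-17A. After IL-36γ, 2 were called with library size as the only scaling. With at least 10 counts in every library S100a7a could not be tested, which left 0 calls after IL-36γ and 0 for the combination against IL-17A. For the combination against PBS this left 2 calls in place of 3, and 2 were also called with the gene length trend removed. In the interaction, 1 was called (S100a10) with DESeq2, without the filter and with the replicate number as a block. Without each library in turn, the calls ranged from 0 to 1 after IL-17A, from 0 to 2 after IL-36γ, from 0 to 1 for the combination against IL-17A and from 0 to 2 in the interaction, 2 being reached without PBS replicate 1 (S100a4 and S100a10). Those of the combination against PBS stayed at 3.

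With the replicate block, 7, 6 and 7 of the 10 genes differed from PBS in the 3 treated groups, in place of 3, 6 and 6. Over all genes, 3360, 6292 and 9128 differed, in place of 2120, 5519 and 8664. The labels do not say that the numbers pair the mice. Of 18 pairs of libraries with the same number, 9 had deviations correlated above 0.1 (from -0.20 to 0.35). The median was 0.097 for these pairs and -0.05 for pairs with other numbers, and whether the numbers mark a batch was not tested. With only the 2 groups compared, 0, 4 and 6 of the 10 genes differed from PBS, against 20, 4037 and 7127 of all genes. Library size alone moved the median over all genes of the change against PBS, on the log2 scale, to -0.13, -0.17 and -0.17, from 0.04, -0.02 and -0.03.

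A change of sign occurred in 13 values under other alternatives. With library size alone S100a14 gave -0.12 after IL-36γ, -0.076 in the combination and 0.042 in the interaction, and S100a16 gave 0.066 in the interaction. With the gene length trend removed the values after IL-36γ were -0.24 for S100a4, -0.086 for S100a13 and -0.10 for S100a14. In the combination they were -0.38 for S100a4, -0.21 for S100a10, -0.058 for S100a13 and -0.05 for S100a14, and in the interaction 0.008 for S100a14 and 0.085 for S100a16. Of these, S100a4 in the combination passed after the change of sign (adjusted p = 0.0113) and S100a13 in the combination had passed before it, and the cause was not tested. Leaving out 1 library changed the sign in 14 pairs of gene and comparison, none of which passed. Their ranges were -0.29 to 1.77 for S100a7a after IL-17A, -0.13 to 0.19 and -0.028 to 0.223 for S100a14 after IL-36γ and in the combination. Between IL-36γ and IL-17A they were -0.29 to 0.21 for S100a11 and -0.16 to 0.13 for S100a6, and for S100a13 between the combination and IL-17A -0.11 to 0.032. Between the combination and IL-36γ they were -0.012 to 0.149 for S100a13, -0.059 to 0.18 for S100a14, -0.143 to 0.041 for S100a4 and -0.045 to 0.249 for S100a6. In the interaction they were -0.298 to 0.042 for S100a14, -0.307 to 0.012 for S100a16, -0.16 to 0.38 for S100a3 and -1.17 to 1.77 for S100a7a.

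Over the member values of all alternatives, 1214 kept direction and side of the threshold, 91 no longer passed, 32 newly passed and 46 changed sign. Depth limits S100a7a in PBS, at 10 to 17 counts.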
